A study of Mus musculus with 18 samples.

Results

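The NF-kB subunits and their feedback inhibitors were followed at the mRNA level in splenic B cells of WT and Ubqln1-/- mice, at rest and after stimulation through 2 different receptors. The set held 10 genes of the 28096 genes counted, and was chosen by symbol and Entrez number rather than by any measured value. It comprised the 5 subunits Nfkb1, Nfkb2, Rel, Rela and Relb, the 4 IkB family genes Nfkbia, Nfkbie, Nfkbiz and Nfkbid, and the deubiquitinating inhibitor Tnfaip3. All 10 were counted in each of the 18 libraries, with the lowest count at 834 (Nfkbiz in a WT resting library), and all 10 passed the filter on low counts.

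B cells were isolated from spleens of C57BL/6 N mice aged at least 8 weeks, either WT or lacking Ubqln1 (genotype given in the labels as Ubiquilin-1 KO). They were left resting, given an anti-IgM F(ab)2 at 10 μg/mL, or given LPS (K12 E. coli) at 20 μg/mL, and RNA was taken after 4 hr. Each of the 6 combinations of genotype and condition had 3 libraries, and each library came from wells pooled after stimulation. The cells were purified with an isolation kit and not sorted further, so fewer cells of a type and less RNA per cell cannot be told apart.

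NF-kB transcription factors are dimers of Rel family proteins that wait in the cytoplasm of resting cells, held there by IkB proteins. Stimulation of the B cell receptor (BCR), here by anti-IgM, or of the LPS receptor activates the IkB kinase, IkB is degraded, and the dimers enter the nucleus. Many of the genes they then switch on encode their own inhibitors and subunits, so the pathway is known for feedback. Ubqln1 is a ubiquitin-binding chaperone, and the study used RNASeq to ask whether small differences in signalling seen without it, among them in NF-kB activation, mattered.

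NF-kB dimers bind DNA words of the kB type, and promoter sequences are shown here because several of the 10 genes carry such words near annotated start sites. RefSeq promoter windows on GRCm38.p6, which run from 250 bases before to 50 bases after an annotated start, were matched for 7 of the 10 genes, with 12 windows in all. The genes with no entry were Nfkb1, Relb and Nfkbiz. The word GGG, any 2 bases, then TTTCC, searched on both strands, was found in 6 of the 12 windows, in Nfkbia, Nfkb2, Rel and Tnfaip3, and 1.63% of the 32851 promoter windows of the same length hold it. Overlapping windows of Nfkb2 share 1 copy. The looser word GGG, any 5 bases, then CC, which includes the first, was found in 12 of 12 windows and in 50.8% of all promoter windows. A match describes letters only. The stretches below are printed 5′ to 3′ on the gene's own strand, with the first word on either strand in capitals for the first 5 and the looser word for the last 2. The Nfkb2 stretches are short because they lie at least in part in an exon of an annotated transcript. The Nfkbid stretch lies 250 to 161 bases before an annotated start that is inside the gene span. The Tnfaip3 stretch lies 70 to 1 bases before an annotated start that is also inside the gene span given below.
Nfkbia, chr12:55492648-55492717, minus strand: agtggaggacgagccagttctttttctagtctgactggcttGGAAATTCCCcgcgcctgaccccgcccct
Nfkb2, chr19:46304707-46304736, plus strand: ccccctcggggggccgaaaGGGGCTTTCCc
Nfkb2, chr19:46305690-46305719, plus strand: ccccctggtattttcGGGACTTTCCtaagc
Rel, chr11:23771030-23771099, minus strand: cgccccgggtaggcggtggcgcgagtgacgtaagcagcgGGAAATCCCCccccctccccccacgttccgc
Tnfaip3, chr10:19015411-19015480, minus strand: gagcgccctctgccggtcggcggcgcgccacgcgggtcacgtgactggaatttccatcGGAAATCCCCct
Nfkbie, chr17:45555570-45555639, plus strand: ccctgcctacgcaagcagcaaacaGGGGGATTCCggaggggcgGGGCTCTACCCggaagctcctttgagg
Nfkbid, chr7:30422156-30422245, plus strand: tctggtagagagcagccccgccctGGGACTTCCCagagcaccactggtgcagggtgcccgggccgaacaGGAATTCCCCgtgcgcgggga

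Total counts ran from 15368941 to 41072854 per library. The reads of Ubqln1 checked the labels: its level was 24.8 to 34.8 RPKM in the 9 Ubqln1-/- libraries and 62.3 to 92.0 RPKM in the 9 WT libraries, with no overlap. The study deleted an exon of the gene and detected no truncated protein in B cells, while the count covers all exons. The source of the remaining reads was not tested. B cell markers (Cd79a, Cd74 and others, 8 genes) summed to 16800 to 19000 CPM (counts per library scaled to a common total) at rest, 9600 to 11400 CPM with anti-IgM and 13400 to 16500 CPM with LPS. Of the T and NK cell markers, Cd3d, Cd3e and Cd3g never passed 0.319 CPM, and the summed list went from 41.4 to 67.2 CPM at rest to 122 to 223 CPM with anti-IgM through Lck alone, whose level ran from 30.7 to 222 CPM. Myeloid markers summed to 29.5 to 58.0 CPM at rest and 22.1 to 29.8 CPM after stimulation. The dendritic cell list went from 11.9 to 18.9 CPM at rest to 41.1 to 69.3 CPM with LPS through Zbtb46 and Flt3, with Siglech at or under 0.319 CPM, and the marginal zone and follicular list from 896 to 1120 CPM at rest to 1950 to 2710 CPM with LPS, mainly through Fcer2a. Plasma cell markers summed to 322 to 789 CPM and erythroid and platelet markers to 2.65 to 6.35 CPM. The part of these lists in the results below was not tested.

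Levels are given in RPKM, the reads of a gene per kilobase of its exons and relative to the scaled library size. This is the scale on which different genes can be set side by side. In resting WT cells the most abundant member was Nfkb1, whose precursor yields the smaller partner of the classical dimer, at 137 ± 6.09 RPKM (SD, n = 3). Nfkbia, the classical rapidly resynthesised IkB, followed at 129 ± 10.2 RPKM, and the ranges of these genes met. The least abundant were Tnfaip3 at 17.8 ± 1.45 RPKM and Nfkbiz, an inducible nuclear IkB protein, at 13.7 ± 0.968 RPKM. Between these extremes Nfkb2 stood at 112, Nfkbid at 94.0, Rela at 82.4, Rel at 63.2, Relb at 61.8 and Nfkbie at 52.9 RPKM. Along this order the ranges of neighbours were apart only between Nfkbia and Nfkb2, Rela and Rel, Nfkbie and Tnfaip3, and Tnfaip3 and Nfkbiz.

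**Figure D1:**
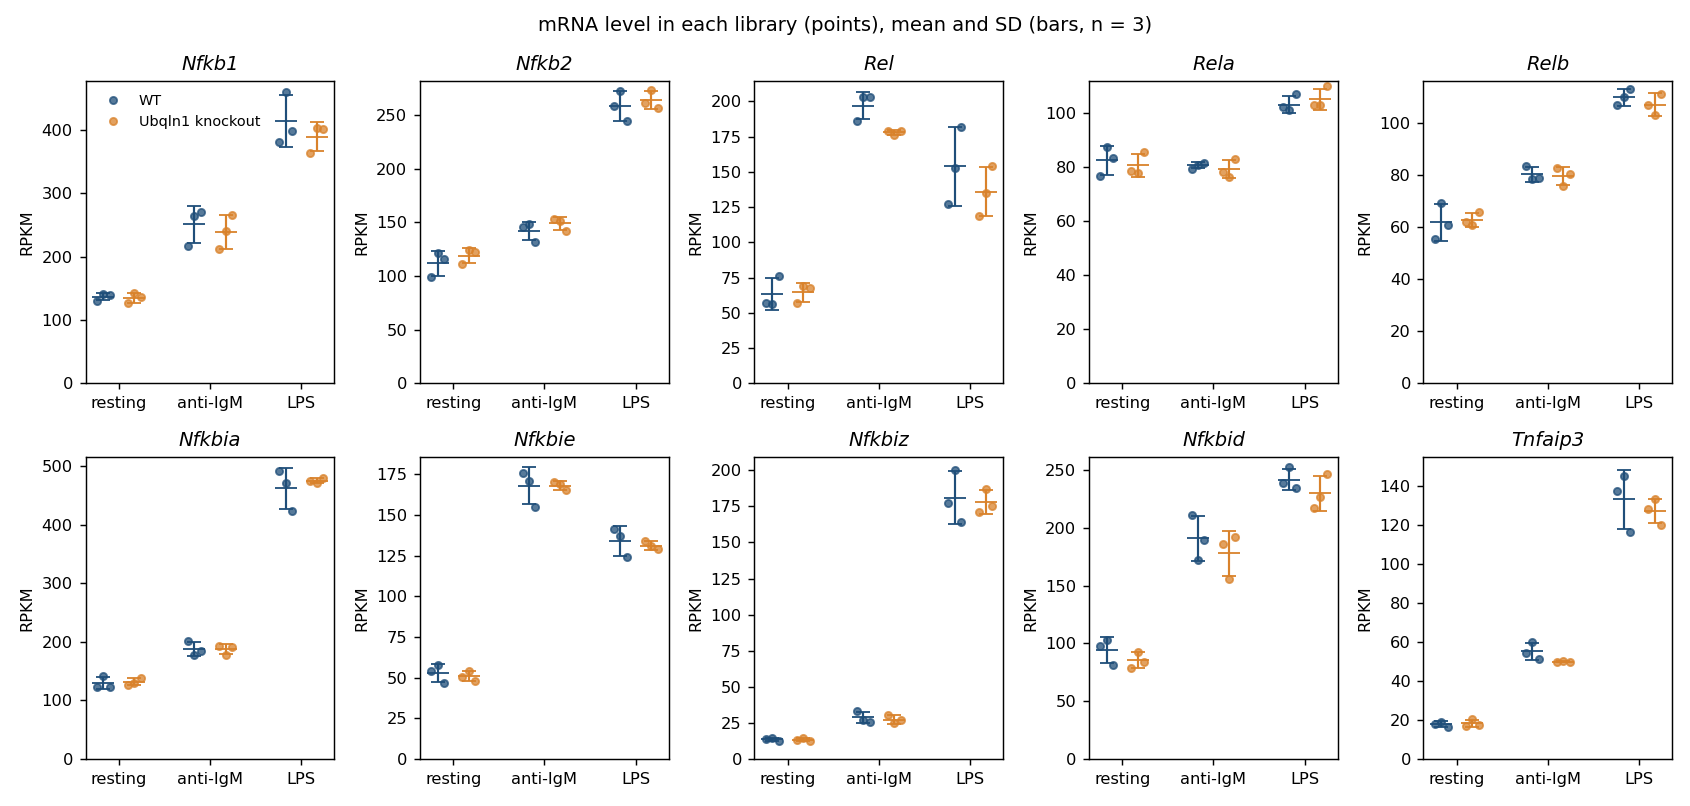
Level of each of the 10 genes (RPKM, y axis from 0) in every library at rest, with anti-IgM and with LPS. Points are libraries, bars are the mean and SD of 3, blue is WT and orange is Ubqln1-/-. Rel and Nfkbie are highest with anti-IgM, the other 8 with LPS, and the genotypes lie close together throughout.

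Does BCR stimulation change these mRNAs? With anti-IgM, 9 of the 10 genes rose in WT cells and 9 in Ubqln1-/- cells, and Rela did not pass the test in either (edgeR quasi-likelihood test, Benjamini-Hochberg adjusted p under 0.05 over 14161 genes). As background, 32.4% of all tested genes rose in WT cells and 32.9% in Ubqln1-/- cells. The median log2 fold change of the 10 genes was 0.95 in WT and 0.93 in Ubqln1-/- cells, against -0.01 and -0.02 over all tested genes. The stimulated libraries of the 9 genes lay above all resting ones, which held for 33.4% of all tested genes in WT cells and 35.6% in Ubqln1-/- cells. No member passed the stricter rule of the study (log2 fold change over 2 in size and adjusted p under 0.001), which 3.76% of genes met in WT cells and 3.64% in Ubqln1-/- cells.

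The largest rises with anti-IgM were those of Nfkbie, Rel and Tnfaip3. Nfkbie (Entrez gene 18037, chromosome 17 from 45555703 to 45563169), whose protein holds Rel-containing dimers in B cells, measured 54.2, 57.9 and 46.8 RPKM in resting WT libraries and 176, 171 and 155 RPKM with anti-IgM. The groups were far apart. The rise was 3.17-fold in WT cells (log2 1.66 ± 0.08 SE, adjusted p = 9.45e-11) and 3.30-fold in Ubqln1-/- cells (log2 1.72 ± 0.08 SE, adjusted p = 6.94e-11), where the level went from 50.9 ± 3.09 to 168 ± 2.83 RPKM. Rel (Entrez gene 19696, chromosome 11 from 23736847 to 23770970) encodes c-Rel, the subunit known for its part in B cell proliferation. It measured 57.2, 56.1 and 76.2 RPKM at rest and 186, 203 and 203 RPKM with anti-IgM in WT cells. All 3 stimulated libraries lay above all 3 resting ones, 3.13-fold in WT cells (log2 1.64 ± 0.13 SE, adjusted p = 2.12e-08) and 2.76-fold in Ubqln1-/- cells (log2 1.46 ± 0.13 SE, adjusted p = 7.2e-08). Tnfaip3 (Entrez gene 21929, chromosome 10 from 19000910 to 19015657) encodes a ubiquitin-editing enzyme that acts upstream of the IkB kinase. It measured 18.1, 19.1 and 16.3 RPKM at rest and 54.5, 60.0 and 51.2 RPKM with anti-IgM in WT cells, a 3.10-fold rise (log2 1.63 ± 0.09 SE, adjusted p = 6.36e-10), and rose 2.74-fold in Ubqln1-/- cells.

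The nuclear IkB genes Nfkbiz and Nfkbid, as well as Nfkb1, rose by about a doubling or less. Nfkbiz (Entrez gene 80859, chromosome 16 from 55811375 to 55838899) went from 13.7, 14.6 and 12.7 RPKM to 33.1, 27.0 and 25.8 RPKM in WT cells, 2.09-fold (adjusted p = 1.32e-07). Nfkbid (Entrez gene 243910, chromosome 7 from 30421732 to 30428746), whose nuclear protein binds Nfkb1 homodimers, went from 98.0, 103 and 81.4 to 211, 172 and 190 RPKM, 2.03-fold (adjusted p = 1.6e-07). In both genes the resting and stimulated libraries did not overlap. Nfkb1 (Entrez gene 18033, chromosome 3 from 135584655 to 135691547) went from 130, 141 and 139 to 217, 264 and 271 RPKM, 1.84-fold (adjusted p = 6.65e-07). These folds were 2.05, 2.08 and 1.77 in Ubqln1-/- cells.

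Nfkbia (Entrez gene 18035, chromosome 12 from 55489410 to 55492647), the IkB gene with the strongest early feedback in textbook accounts, had a smaller fold change than Nfkbie at this time. Its WT libraries measured 123, 141 and 123 RPKM at rest and 201, 178 and 184 RPKM with anti-IgM, 1.45-fold (log2 0.54 ± 0.07 SE, adjusted p = 4.33e-06). Relb (Entrez gene 19698, chromosome 7 from 19606217 to 19629438), a subunit of the non-canonical pathway, rose 1.30-fold (adjusted p = 0.000149), from 55.3, 69.3 and 60.9 to 83.6, 78.4 and 78.9 RPKM. Nfkb2 (Entrez gene 18034, chromosome 19 from 46304320 to 46312385), the usual partner of Relb, rose 1.27-fold (adjusted p = 0.000674), from 98.6, 121 and 116 to 146, 148 and 132 RPKM. Both are small changes, although the groups did not overlap. Nfkb2 shares 316 bases with the oppositely oriented gene Psd and its span with the noncoding gene 4833438C02Rik, whose counts were 11.1 to 14.5% and 3.07 to 7.32% of the Nfkb2 count. Without strand, reads in the shared bases cannot be assigned. Nfkb1 likewise overlaps the noncoding gene Gm46827.

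Rela (Entrez gene 19697, chromosome 19 from 5637483 to 5648130), the transactivating subunit of the classical dimer, was the member that did not pass. Its WT libraries measured 76.7, 87.3 and 83.3 RPKM at rest and 79.3, 80.6 and 81.5 RPKM with anti-IgM. The groups overlapped. The log2 difference was -0.04 (95% interval -0.16 to 0.09, adjusted p = 0.611) in WT cells and -0.03 (95% interval -0.15 to 0.10, adjusted p = 0.712) in Ubqln1-/- cells.

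Does LPS change the same mRNAs? All 10 genes rose with LPS in both genotypes, against 31.2% of all tested genes in WT cells and 30.6% in Ubqln1-/- cells. The median log2 fold change of the set was 1.35 in WT and 1.40 in Ubqln1-/- cells, while it was -0.01 and -0.02 over all tested genes. Nfkbiz and Tnfaip3 also passed the stricter rule of the study, which 1.80% of genes met in WT cells and 1.74% in Ubqln1-/- cells. In every member and both genotypes the LPS libraries lay above all resting ones, as in 31.8% of all tested genes in WT cells and 33.5% in Ubqln1-/- cells.

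Nfkbiz rose most. Its level was 177, 200 and 164 RPKM in the WT LPS libraries and 171, 187 and 175 RPKM in the Ubqln1-/- ones, from 12.5 to 14.6 RPKM over the 6 resting libraries. The rise was 13.2-fold in WT cells (log2 3.72 ± 0.11 SE, adjusted p = 2.14e-12) and 13.4-fold in Ubqln1-/- cells (log2 3.74 ± 0.11 SE, adjusted p = 1.96e-12). From the least abundant member at rest, it became the fifth most abundant by mean level with LPS. Its range there met that of the next member, Rel, in WT cells and not in Ubqln1-/- cells. The fold change of Nfkbiz ranked 30 of 14161 genes in WT cells. Tnfaip3 followed, at 137, 145 and 116 RPKM in the WT libraries, 7.43-fold (log2 2.89 ± 0.10 SE, adjusted p = 6.51e-12), and 6.99-fold in Ubqln1-/- cells.

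Nfkbia became the most abundant member with LPS. It measured 491, 471 and 423 RPKM in WT cells and 475, 471 and 480 RPKM in Ubqln1-/- cells, 3.57-fold (log2 1.84 ± 0.07 SE, adjusted p = 4.92e-11) and 3.61-fold above rest. Nfkb1 came next, at 382, 461 and 399 RPKM in WT libraries, 3.03-fold above rest (adjusted p = 3.45e-09). The ranges of these genes met in WT cells and not in Ubqln1-/- cells. Nfkbid reached 239, 253 and 235 RPKM (2.58-fold, adjusted p = 1.54e-08) and Nfkbie 141, 137 and 124 RPKM (2.53-fold, adjusted p = 1.8e-09) in WT cells.

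Among the subunits, Rel and Nfkb2 rose to similar degrees with LPS and Rela had the smallest fold change. Rel measured 127, 153 and 182 RPKM in the WT LPS libraries, with a coefficient of variation of 18.1%, the highest of the members there, and 119, 135 and 154 RPKM in the Ubqln1-/- ones. It rose 2.44-fold (log2 1.28 ± 0.13 SE, adjusted p = 4.82e-07) and 2.11-fold (log2 1.08 ± 0.13 SE, adjusted p = 3.13e-06). Nfkb2 rose 2.31-fold in WT cells (258, 272 and 244 RPKM, adjusted p = 3.63e-09), with the overlap with Psd as above. Relb rose 1.78-fold (107, 110 and 113 RPKM, adjusted p = 5.28e-08). Rela rose 1.25-fold in WT cells (102, 101 and 107 RPKM, adjusted p = 0.000119) and 1.31-fold in Ubqln1-/- cells (103, 103 and 110 RPKM, adjusted p = 2.18e-05).

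**Figure D2:**
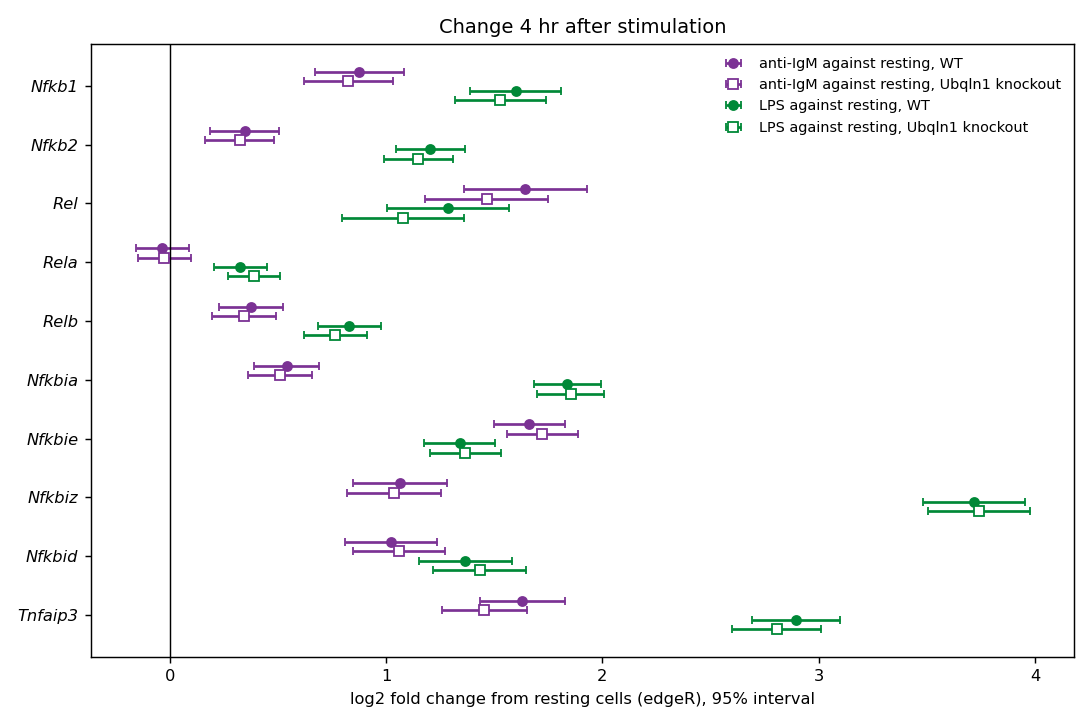
Log2 fold change from resting cells (x axis, edgeR) with its 95% interval for each gene, 4 hr after anti-IgM (purple) or LPS (green), in WT (filled) and Ubqln1-/- cells (open). Nfkbiz and Tnfaip3 reach 3.72 and 2.89 with LPS in WT cells, and only the anti-IgM intervals of Rela include 0.

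How do the stimuli differ? Both were compared with the same resting libraries above, so they were also compared with each other directly. With LPS, 8 genes were higher and 2 were lower than with anti-IgM in each genotype, while 17.4% of all tested genes were higher and 15.0% lower in WT cells, and 16.8% and 14.5% in Ubqln1-/- cells. In all 10 the libraries of the stimuli did not overlap, as in 40.6% of all tested genes in WT cells and 46.5% in Ubqln1-/- cells. The largest difference was that of Nfkbiz, 6.30-fold higher with LPS in WT cells (log2 2.65 ± 0.11 SE, adjusted p = 1.7e-11) and 6.51-fold in Ubqln1-/- cells. It was the single member past the stricter rule, which 2.51% of genes met in WT cells and 2.24% in Ubqln1-/- cells. Nfkbia was 2.46-fold higher with LPS (adjusted p = 4.96e-10), Tnfaip3 2.40-fold (adjusted p = 1.18e-08), Nfkb2 1.81-fold (adjusted p = 1.3e-07) and Nfkb1 1.65-fold (adjusted p = 1.69e-05) in WT cells.

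The 2 genes that were lower with LPS were Rel and Nfkbie. Their fold changes with anti-IgM in WT cells (3.13 and 3.17) were barely above that of Tnfaip3 (3.10), which was higher with LPS. The anti-IgM libraries enter both comparisons. Nfkbie was 0.800 times its anti-IgM level in WT cells (log2 -0.32 ± 0.08 SE, adjusted p = 0.00296) and 0.782 times in Ubqln1-/- cells (log2 -0.36 ± 0.08 SE, adjusted p = 0.00149). Rel was 0.779 times its anti-IgM level in WT cells (log2 -0.36 ± 0.13 SE, adjusted p = 0.0444) and 0.765 times in Ubqln1-/- cells (log2 -0.39 ± 0.13 SE, adjusted p = 0.0328). The Rel call depended on the fit. It was lost on leaving out any of WT LPS replicate 1, WT LPS replicate 2, WT anti-IgM replicate 2 or WT anti-IgM replicate 3 (adjusted p from 0.0897 to 0.207), and on leaving out any of the 6 Ubqln1-/- libraries except LPS replicate 3 (adjusted p from 0.0639 to 0.14). In a fit of the WT groups alone it was also lost (adjusted p = 0.0863). With the replicate number as a block it was stronger, at log2 -0.37 (adjusted p = 0.00154) in WT cells and -0.40 (adjusted p = 0.000925) in Ubqln1-/- cells. Rel remained lower with LPS under every alternative, by a log2 of -0.50 to -0.24 in WT cells and -0.49 to -0.30 in Ubqln1-/- cells. Nfkbid, 1.27-fold higher with LPS in WT cells (adjusted p = 0.0131) and 1.30-fold in Ubqln1-/- cells (adjusted p = 0.00813), lost its call without anti-IgM replicate 2 of the genotype in question (adjusted p = 0.0762 and 0.055).

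The make-up of the subunit mRNAs is given as a description, without a test. The summed RPKM of the 5 subunits was 456 ± 33.2 at rest, 751 ± 34.4 with anti-IgM and 1040 ± 60.4 with LPS in WT cells (SD, n = 3). Rel made up 13.9 ± 2.11% of that sum at rest, 26.3 ± 0.15% with anti-IgM and 14.8 ± 2.36% with LPS. Rela made up 18.1 ± 0.48%, 10.7 ± 0.375% and 9.97 ± 0.67%. Per length, there was less Rel than Rela mRNA at rest and more after either stimulus: the ratio was 0.746, 0.643 and 0.914 at rest, 2.35, 2.52 and 2.49 with anti-IgM and 1.24, 1.51 and 1.71 with LPS. In Ubqln1-/- cells it was 0.801 ± 0.0824, 2.25 ± 0.0832 and 1.29 ± 0.123. With anti-IgM, Rel and Rela had the largest and smallest fold changes of the subunits, so this shift follows in part from the choice of pair. The ratio of Nfkb1 to Nfkb2 in WT cells was 1.23 ± 0.078 at rest, 1.77 ± 0.279 with anti-IgM and 1.6 ± 0.108 with LPS.

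The ratio of 2 classical inhibitors, Nfkbia and Nfkbie, is given as a description too, without a test. The pair was picked because these genes moved apart in the same values, so separate ranges follow in part from that choice. Nfkbib, the other classical IkB gene, is described below. The ratio of Nfkbia to Nfkbie mRNA was 2.27, 2.44 and 2.63 in resting WT libraries, 1.14, 1.04 and 1.19 with anti-IgM and 3.48, 3.43 and 3.42 with LPS. No library of one condition reached the range of another. In Ubqln1-/- cells the ratio was 2.59 ± 0.256, 1.12 ± 0.0546 and 3.62 ± 0.0936.

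**Figure D3:**
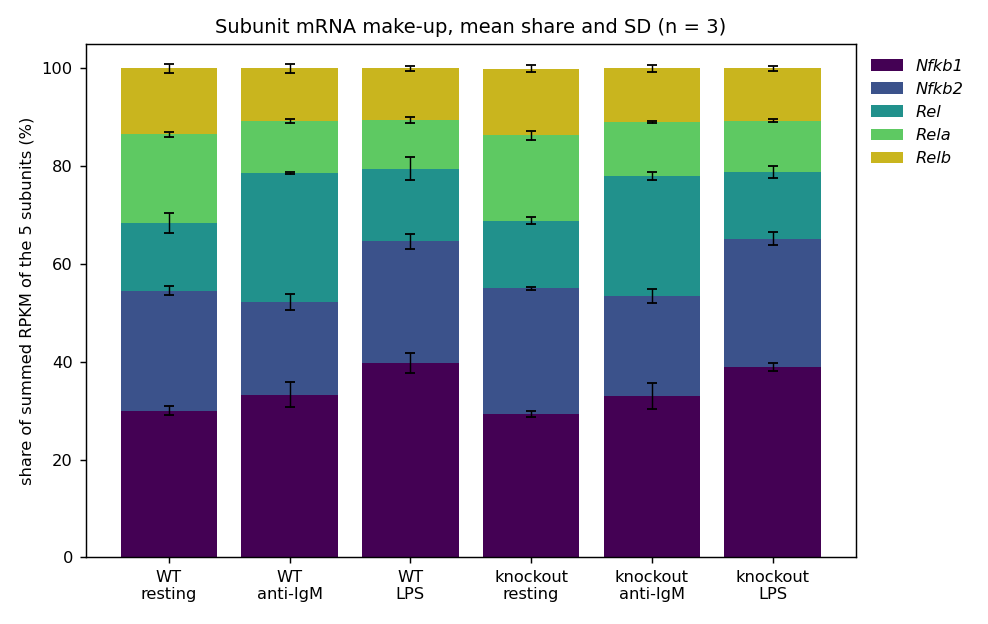
Share of each subunit in the summed RPKM of the 5 subunits (y axis, percent) for each genotype and condition, with the SD of 3 libraries at the top of each segment. Rel takes 26.3% with anti-IgM in WT cells, against 13.9% at rest and 14.8% with LPS, and 24.6%, 13.9% and 13.6% in Ubqln1-/- cells.

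Does loss of Ubqln1 alter these mRNAs? None of the 10 genes was called between the genotypes at rest, with anti-IgM or with LPS, where 0.0565%, 0.0989% and 0.0424% of all tested genes were called. None was called in the mean of the 3 conditions, where 1.16% were. Over the 30 comparisons the log2 difference, Ubqln1-/- minus WT, ran from -0.18 (Rel with LPS) to 0.09 (Nfkb2 at rest), and 20 of the 30 were negative. The 95% intervals of the fold lay between 0.73 and 1.24 over the 10 genes, with both ends set by Rel, and the intervals of Rela were the narrowest. These values are from the fit without a replicate block, where the smallest unadjusted p was 0.117 and the lowest adjusted p 0.997. With the block the smallest unadjusted p was 0.0173 (Tnfaip3 with anti-IgM, adjusted p = 0.301), and none was called. The blocked interval of Rel with LPS ran from a log2 of -0.35 to 0.005, against -0.45 to 0.10 without the block. The summed plasma cell markers were lower in Ubqln1-/- libraries without overlap at rest (492 to 562 against 616 to 789 CPM) and with anti-IgM (364 to 391 against 408 to 628 CPM), and overlapped with LPS, and their part in these values was not tested. Over all genes, 597, 728 and 557 had an unadjusted p under 0.05 in the 3 conditions without the block.

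Rel and Tnfaip3 with anti-IgM were the only values in which the genotypes did not overlap, 2 of 10 genes in that condition, where 11.4% of all tested genes did not overlap. At rest and with LPS all 10 genes overlapped, and 7.89% and 7.01% of all tested genes did not. Rel measured 179, 176 and 179 RPKM in Ubqln1-/- libraries and 186, 203 and 203 RPKM in WT libraries. Its fold was 0.901 (log2 -0.15 ± 0.13 SE, adjusted p = 0.997). Tnfaip3 measured 49.5, 50.2 and 49.8 RPKM in Ubqln1-/- libraries and 54.5, 60.0 and 51.2 RPKM in WT libraries, a fold of 0.902 (log2 -0.15 ± 0.09 SE, adjusted p = 0.997). With the replicate block the Tnfaip3 difference was log2 -0.14 (95% interval -0.26 to -0.03) and was not called (adjusted p = 0.301). Both Ubqln1-/- groups were lower, and neither difference passed the test.

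The responses themselves were compared between genotypes by an interaction term. None of the 10 genes was called for anti-IgM or for LPS, with 0% of all genes called in either (140 and 220 genes at an unadjusted p under 0.05, and 0 by DESeq2). Both counts fall below what that p would give by chance over 14161 genes, and the cause was not tested. Neither the main fit nor the DESeq2 fit held a replicate block. The log2 difference of the anti-IgM response, Ubqln1-/- minus WT, ran from -0.18 for Rel to 0.06 for Nfkbie, with 95% intervals between -0.57 and 0.34. That of the LPS response ran from -0.21 for Rel to 0.07 for Nfkbid, with intervals between -0.60 and 0.37. Nfkbiz, the strongest LPS gene, differed by 0.02 (95% interval -0.28 to 0.32), and Nfkbia by 0.01 (95% interval -0.20 to 0.23). With the replicate block the Tnfaip3 difference in the anti-IgM response was log2 -0.17 (95% interval -0.34 to -0.004) and was not called. The blocked intervals of the other members included 0 for both stimuli.

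**Figure D4:**
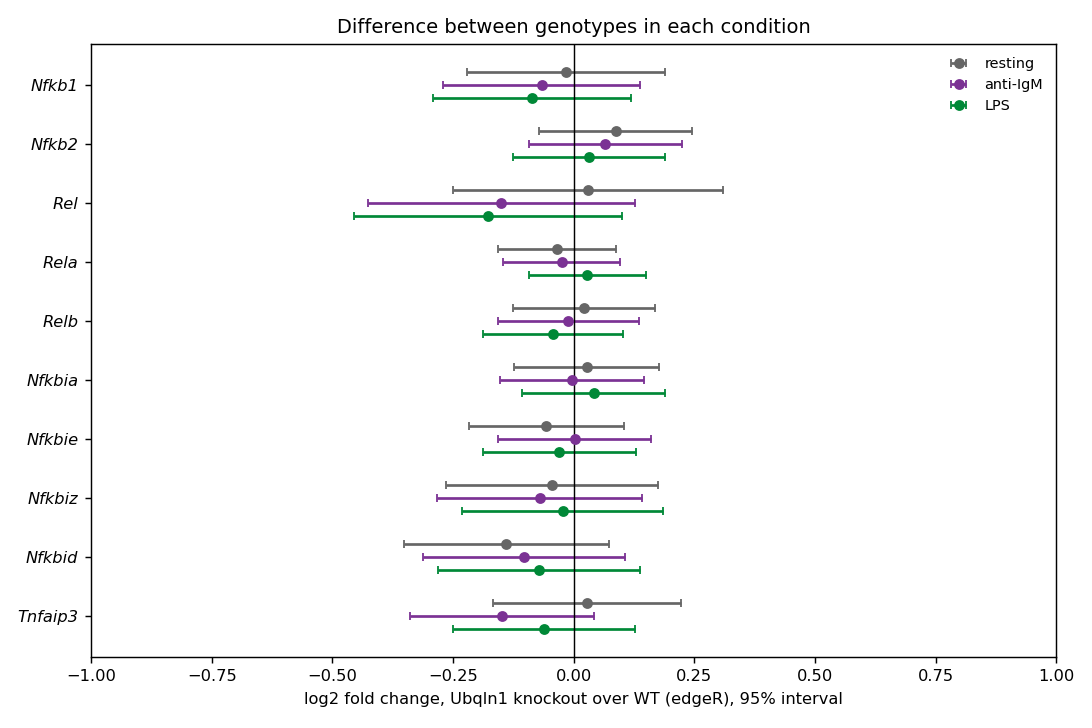
Log2 fold change of Ubqln1-/- over WT cells (x axis, edgeR) with its 95% interval, for each gene at rest (grey), with anti-IgM (purple) and with LPS (green). All 30 intervals of this fit, which held no replicate block, include 0.

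The other IkB family and feedback genes of the pathway did not move as one. Of 16 further IkB family and feedback genes, 4 rose and 8 fell with anti-IgM in WT cells (32.4% and 32.2% of all genes did), and 9 rose and 5 fell with LPS (31.2% and 30.1%). In Ubqln1-/- cells 4 rose and 8 fell with anti-IgM (32.9% and 32.4% of all genes), and 9 rose and 4 fell with LPS (30.6% and 30.2%). The list's median log2 fold change was -0.18 with anti-IgM and 0.23 with LPS. Bcl3, an IkB family protein that acts in the nucleus with Nfkb1 and Nfkb2 homodimers, changed in opposite directions with the stimuli. It measured 53.9, 63.6 and 56.8 RPKM at rest, 16.5, 14.8 and 17.1 RPKM with anti-IgM and 108, 110 and 109 RPKM with LPS in WT cells. It fell to 0.277 times with anti-IgM (log2 -1.85 ± 0.11 SE, adjusted p = 1.33e-09) and rose 1.87-fold with LPS (log2 0.91 ± 0.11 SE, adjusted p = 2.04e-06), so that it was 6.76-fold higher with LPS than with anti-IgM (adjusted p = 2.51e-11). In Ubqln1-/- cells it fell to 0.334 times and rose 1.84-fold.

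Nfkbib, the remaining classical IkB gene, rose with both stimuli. Its WT libraries measured 27.9, 37.3 and 33.0 RPKM at rest, 62.6, 63.9 and 65.5 RPKM with anti-IgM and 69.5, 75.6 and 66.7 RPKM with LPS, 1.95-fold (adjusted p = 3.35e-08) and 2.15-fold (adjusted p = 1.6e-08). LPS against anti-IgM did not pass in WT cells (log2 0.14, 95% interval -0.03 to 0.31, adjusted p = 0.201). Zc3h12a, which encodes an RNase that degrades inflammatory mRNAs, had the largest LPS change of the list, 4.06-fold (adjusted p = 2.24e-10), from 25.6, 26.2 and 28.1 to 109, 103 and 112 RPKM. The smallest called changes of the list in WT cells were those of Tax1bp1 with anti-IgM (log2 -0.15), Otulin with LPS (-0.14) and Otud7b for LPS against anti-IgM (-0.19).

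Genes of the IkB kinase complex and its upstream adaptors had a median log2 fold change of -0.07 with anti-IgM and 0.05 with LPS in WT cells. Of 20 genes, 3 rose and 8 fell with anti-IgM in WT cells (32.4% and 32.2% of all genes did) and 1 and 9 in Ubqln1-/- cells (32.9% and 32.4%). With LPS 8 rose and 6 fell in WT cells (31.2% and 30.1% of all genes) and 6 and 6 in Ubqln1-/- cells (30.6% and 30.2%). Prkcb, a protein kinase C gene of BCR signalling, fell to 0.535 times with anti-IgM (46.6 ± 5.76 RPKM from 87.1 ± 15.2 RPKM at rest, adjusted p = 4.87e-06) and stood at 85.6 ± 9.95 RPKM with LPS, so that it was 1.84-fold higher with LPS than with anti-IgM (adjusted p = 1.99e-05). The smallest called changes were those of Myd88 with anti-IgM (log2 0.20), Rbck1 with LPS (0.13) and Tab2 between the stimuli (0.15).

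Textbook NF-kB target genes formed the last list. Of 24, 17 rose and 4 fell with anti-IgM and 22 rose and 0 fell with LPS, in each genotype. The shares of all genes in WT cells were 32.4% and 32.2% with anti-IgM and 31.2% and 30.1% with LPS. In Ubqln1-/- cells these shares were 32.9% and 32.4% with anti-IgM and 30.6% and 30.2% with LPS. With LPS 19 were higher and 3 lower than with anti-IgM in WT cells (17.4% and 15.0% of all genes). The median log2 fold change was 0.73 with anti-IgM and 2.27 with LPS in WT cells. The genes that fell with anti-IgM were Cd40, Ebi3, Lta and Ltb, named after their values were seen. Ccl4, a chemokine gene, rose most with anti-IgM, 11.3-fold (adjusted p = 7.88e-09), from 10.1, 14.2 and 11.4 to 149, 134 and 123 RPKM, and was lower with LPS at 29.8, 54.9 and 51.6 RPKM. Il6, a cytokine gene, had the largest fitted LPS change at low levels: 2.88, 7.39 and 7.54 RPKM with LPS, against at most 0.275 RPKM in the resting and anti-IgM WT libraries, 1 of which was at 0. Gadd45b with anti-IgM (1.33-fold), Ccr7 with LPS (2.06-fold) and Junb between the stimuli (1.32-fold) were the smallest called changes. None of the 60 genes in these lists was called between the genotypes in any condition. Of all tested genes 0.0565% were called at rest, 0.0989% with anti-IgM and 0.0424% with LPS. With anti-IgM some did not overlap between the genotypes, in either direction, where 11.4% of all tested genes did not. Those lower in Ubqln1-/- libraries were Cd83, Irf4, Myc, Tab2 and Tax1bp1, and those higher were Ltb, Lta, Ikbkg, Traf3 and Tnip3. They are named after their values were seen, and Cd83 and Ltb serve as examples. Cd83 was lower in Ubqln1-/- libraries (468, 447 and 502 against 555, 574 and 639 RPKM). Ltb was higher (66.0, 59.7 and 69.4 against 56.1, 41.1 and 46.8 RPKM).

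**Figure D5:**
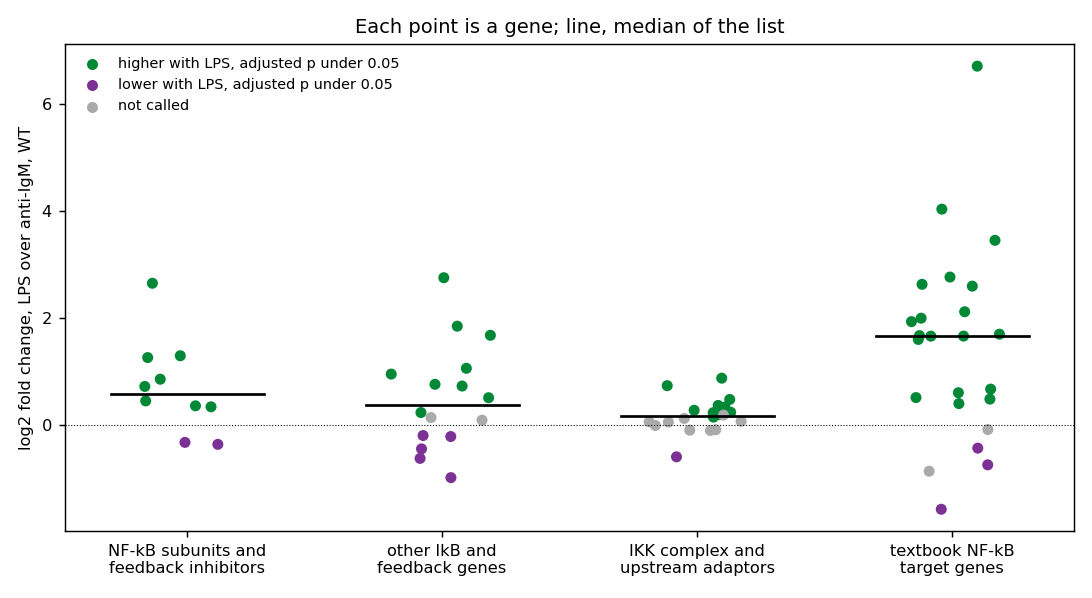
Log2 fold change of LPS over anti-IgM in WT cells (y axis, edgeR) for the 10 genes and the lists of 16, 20 and 24 genes. Each point is a gene, coloured by its call, and lines are medians, 0.59, 0.37, 0.17 and 1.67 from left to right.

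Genes with the most similar pattern were sought by the root mean square difference of centred log2 CPM over the 18 libraries, as a description. For Rel these were Hspa9 (0.165) and Hilpda (0.176), and its nearest member was Nfkbie (0.23). For Nfkbie they were Qtrt1 (0.109) and Cyp51 (0.127), and its nearest member was Rel. The members that stood furthest from the rest were Nfkbiz, with Ccnd2 (0.242) and the unnamed Entrez gene 100861633 (0.266) closest and Tnfaip3 the nearest member (0.579), and Tnfaip3, with Plscr1 (0.189) and Marchf3 (0.202) closest. Nfkb2 was closest to Psd (0.111), with which it shares bases, and then to Trp53 (0.132). Nfkb1 was closest to Pcgf5 (0.141) and Abcc1 (0.149), Rela to Srrt (0.0475) and Cdc42 (0.0511), and Relb to Tfe3 (0.0547) and Mvp (0.0827). Nfkbia was closest to Inf2 (0.131) and Stx11 (0.171), and Nfkbid to Psme2 (0.138) and Nup62 (0.142). The differences for Rela and Relb are small in part because these genes vary little, and 1941 genes lay nearer to Rela than its nearest member did.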

How the data were processed

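RNASeq libraries (TruSeq RNA v2, single end 50 base reads) were made from 18 samples. Alignment was to GRCm38 by GSNAP, and the authors deposited, for each Entrez gene, the raw count of reads over its exons, the exon width, and RPKM. The counting program, annotation release and strand setting are not given in the sources used here, and the kit does not record strand. Symbols came from the RefSeq table of GRCm38.p6 (25035 of 28096 genes, 89.1%) and positions from GENCODE M21. The members, gene lists and tests were chosen with earlier results of these data known. Genes outside the members are named by a rule: the largest and smallest called change of each list in WT cells, Bcl3 and Nfkbib always, and the 2 nearest patterns per member. One gene that this rule names is not reported here.

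Counts were fitted with edgeR 4.0.16 (R 4.3.3): TMM scaling (factors 0.958 to 1.04), its expression filter (14161 genes kept), 1 mean per group over all 18 libraries, the quasi-likelihood test and Benjamini-Hochberg adjustment. The SE is the log2 fold change divided by the square root of F. The study used limma. RPKM was recomputed from the deposited count and width with TMM-scaled library sizes, and the RPKM the authors deposited was an alternative. The common biological coefficient of variation was 10.1%. Replicates are separate libraries, which the study describes as independent experiments. The labels do not name the mice. Tested on simulated data with 200 changed genes, the fit for anti-IgM against resting in WT cells found 99% of those changed by a log2 of 1 and 100% of those changed by 2, with 9 false calls among 13979 genes. The simulated libraries shared no replicate effect, and changes as small as the genotype differences above were not simulated. The simulation therefore does not bear on those differences. Alternatives were RLE scaling, limma 3.58.1 with voom, DESeq2 1.42.0, other filters, a replicate block, fits of the compared groups alone, a smaller prior count, and leaving out each library.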

Additional observations from a re-analysis of the deposited data

How the results depend on the processing

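The count of members called was the same with RLE scaling, limma with voom, DESeq2, either filter and the replicate block in every comparison tried. With the compared groups alone it changed only for LPS against anti-IgM in WT cells, from 10 to 9 (Rel). Leaving out 1 library gave 9 to 9 members for anti-IgM, 10 to 10 for LPS, 8 to 10 for LPS against anti-IgM in each genotype, and 0 to 0 for the genotype and interaction comparisons. For single members under all alternatives, 12 calls were lost, 10 of Rel and 2 of Nfkbid in LPS against anti-IgM, and 0 called values changed sign. The 91 values that moved were not called in either fit.

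Replicates called 1 have no number in the labels. Deviations of same-numbered libraries correlated at a mean of 0.266, over 0.1 in 43 of 45 pairs (lowest 0.055), and 18 of 18 libraries correlated best with their own number. The study describes independent experiments and paired tests, while the labels do not say which libraries share an experiment. With the replicate block, 9 members were called for anti-IgM, 10 for LPS and 0 between genotypes, as without it, while all genes called between genotypes went from 8 to 49 at rest, 14 to 94 with anti-IgM, 6 to 125 with LPS and 164 to 742 in the mean. DESeq2 called 32, 47, 51 and 310. Fits of the compared groups alone called 5, 2 and 2 in the 3 conditions, and the fit without the low-count filter called 9 of 21150 genes at rest and 9 with LPS. Leaving out 1 library gave 2 to 11 at rest, 2 to 10 with anti-IgM, 2 to 37 with LPS, 107 to 188 in the mean and 0 to 10 for the LPS interaction. The cause was not tested.

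The RPKM the authors deposited was 0.835 to 0.89 times the TMM-scaled RPKM, since its library total exceeds the sum of the counts, and 57 of 60 group means moved by more than 1 SD. All 20 genes of like pattern stayed with a prior count of 0.5.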
